A study of Arabidopsis thaliana with 8 samples.

Results

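THIC and AT2G32040 are nuclear genes for plastid proteins of vitamin B metabolism, compared here between the Arabidopsis thaliana line psah2k and the wild type (WT). They were chosen by the annotation of the array, as the features assigned to either gene alone. This gave 1 feature for THIC (AT2G29630) and 1 for AT2G32040, so 2 of the 3439 features on the array and 2 of the 692 that are assigned to a single gene. Both genes were picked with their psah2k and WT values known, so their levels and differences are given as descriptions, without a test.

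The study hybridised RNA of 8 samples to 1-channel arrays, with 4 samples of the psah2k double mutant and 4 of WT, all of ecotype Columbia 0. The labels say that the mutant is without a pair of photosystem I proteins but name them inconsistently: psah2k reads as subunits H and K, while the sample description gives E1 and K. The labels give no alleles, organ, age or growth conditions, and do not say if the samples were of separate plants. Differences between samples of a genotype may therefore be technical. Of 18 leaf, root and seed marker genes, 0 had a feature of their own, so the organ could not be checked.

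Thiamine, vitamin B1, is built in plastids from a pyrimidine and a thiazole part. THIC makes the pyrimidine part in the chloroplast stroma: it is an iron-sulfur enzyme that rearranges aminoimidazole ribotide, an intermediate that it shares with purine synthesis. Its transcript is known for a riboswitch that binds thiamine diphosphate and alters how the transcript is processed. AT2G32040 encodes a folate transporter of the chloroplast envelope and belongs to the folate-biopterin transporter family, which is also known from cyanobacteria. Folates carry one-carbon units for the synthesis of purines, thymidylate and methionine and for photorespiration.

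The genes differed in opposite ways between the genotypes relative to the other features of an array. The signal of AT2G32040 was far dimmer in psah2k on every scale used: its deposited intensity averaged 0.0415 ± 0.0379 in psah2k and 0.829 ± 0.164 in WT (SD, n = 4 each). THIC kept most of its signal, with 0.385 ± 0.125 in psah2k and 0.520 ± 0.0323 in WT (SD, n = 4 each). Most features were dimmer in psah2k, and THIC stood higher among them there, at a mean percentile rank of 83.7 ± 3.68 in psah2k against 68.4 ± 0.918 in WT. AT2G32040 stood at 42.5 ± 16.3 in psah2k against 82.2 ± 3.61 in WT. The percentile rank is the position of a feature among all 3439 of its array, values of 0 included, with 100 for the brightest. In total RNA, less RNA per cell and fewer cells that express a gene cannot be told apart.

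Intensities were deposited on a linear scale from 0 to 100, and the sources used here do not say how arrays were scaled. The median array intensity was 0.0544 ± 0.00338 in psah2k and 0.320 ± 0.0176 in WT, and between 739 and 1014 features were at 0 on a psah2k array against 448 to 472 on a WT array. What part this shift has in the differences below was not tested. For log2 differences the values were therefore quantile normalized, with values of 0 as missing, and limma was fitted to the 2353 features that had 3 or 4 values per genotype. It called 53.0% of them (adjusted p under 0.05), 620 higher and 626 lower in psah2k. The balance followed the scaling, with 172 higher and 1718 lower for the values as deposited. There were 817 and 396 once array medians were made equal (median centring), and 567 and 790 once upper quartiles were. For centring, medians and upper quartiles left out values of 0, while those quoted elsewhere here include them. Within a genotype, numbers 1 and 2, and 3 and 4, were the more alike: Spearman's rho across 1806 features was 0.881 to 0.897 within these pairs and 0.853 to 0.866 otherwise in psah2k, and 0.981 to 0.987 against 0.960 to 0.966 in WT.

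THIC had deposited intensities of 0.470, 0.495, 0.223 and 0.349 on psah2k arrays 1 to 4, against 0.528, 0.562, 0.498 and 0.491 on WT arrays 1 to 4. The genotypes overlapped on this scale, since psah2k 2 lay just above WT 4, while psah2k 3 was the dimmest of the 8 arrays. In 1 of the 16 pairings of a psah2k with a WT array the psah2k value was the higher. No array was at 0 for THIC.

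Set against the rest of its array, the THIC feature was brighter in psah2k. Its intensity was 3.99 to 9.78 times the array median on psah2k arrays, lowest on number 3 and highest on number 2, against 1.58 to 1.67 times on WT arrays. Against the upper quartile it was 1.22 to 2.55 times as bright on psah2k arrays and 0.802 to 0.852 times on WT arrays. It lay above the upper quartile on every psah2k array and below it on every WT array. How many other features did so was not counted. Between 471 and 744 features were brighter than THIC on a psah2k array, against 1048 to 1124 on a WT array.

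The percentile ranks of THIC were 86.3, 86.0, 78.4 and 84.1 on psah2k arrays 1 to 4, against 67.3, 69.5, 68.6 and 68.2 on WT arrays 1 to 4. All psah2k ranks were above all WT ranks, as they were for 31.2% of the tested features. The mean rank was 15.3 points higher in psah2k, when the median over tested features was 1.90 points higher and the upper quartile 14.8 points higher. Of the 2353 tested features, 568 had a larger gain in rank than THIC, and 95 of the 468 tested features with a single gene did. Psah2k arrays have more features at 0, and these count as ranked below every feature above 0. Ranked among the features above 0 alone, THIC was at 78.2 ± 4.11 in psah2k and 63.5 ± 1.17 in WT.

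**Figure D1:**
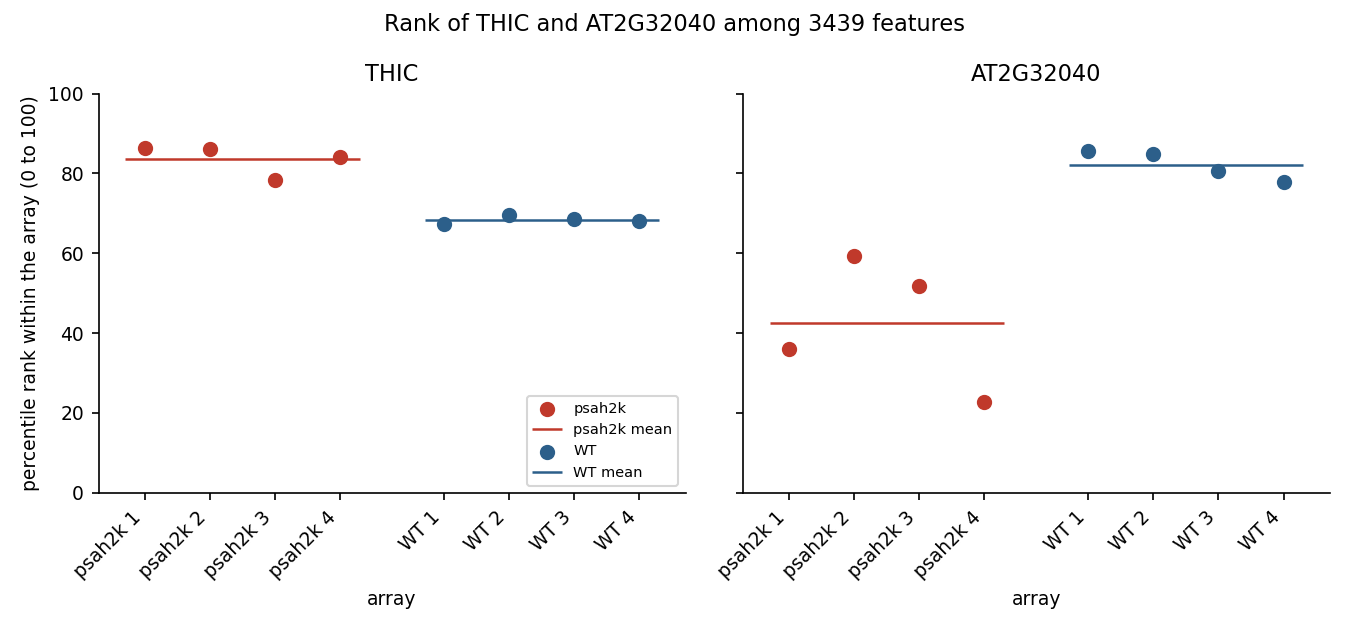
Percentile rank of THIC (left) and AT2G32040 (right) within each of the 8 arrays, where 100 is the brightest of 3439 features; points are arrays and lines are genotype means. THIC ranks from 78.4 to 86.3 on psah2k arrays and from 67.3 to 69.5 on WT arrays, while AT2G32040 ranks from 22.8 to 59.4 on psah2k arrays and from 77.8 to 85.5 on WT arrays.

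AT2G32040 had deposited intensities of 0.0174, 0.0847, 0.0608 and 0.00298 on psah2k arrays 1 to 4, against 0.973, 0.964, 0.721 and 0.656 on WT arrays 1 to 4. Every psah2k array was below every WT array, as was the case for 72.6% of the tested features on this scale. Psah2k 4 was the dimmest and psah2k 2 the brightest of the mutant arrays, 28.4-fold apart, while the WT arrays spanned 1.48-fold. No array was at 0, but the value on psah2k 4 was close to it: 44 of the 2700 features above 0 on that array were dimmer.

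On the WT arrays AT2G32040 was among the brighter features, at 1.09 to 1.48 times the array's upper quartile. On the psah2k arrays it ranged from far below to above the array median, at 0.331, 1.67, 1.09 and 0.0512 times the median on numbers 1 to 4. Arrays 2 and 3 were thus above the median of their array and arrays 1 and 4 below it. That median counts features at 0. Among the features above 0 alone, its percentile ranks were 10.8, 42.4, 37.8 and 1.67 on psah2k arrays 1 to 4. Against the upper quartile it was at most 0.437 times as bright in psah2k.

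**Figure D2:**
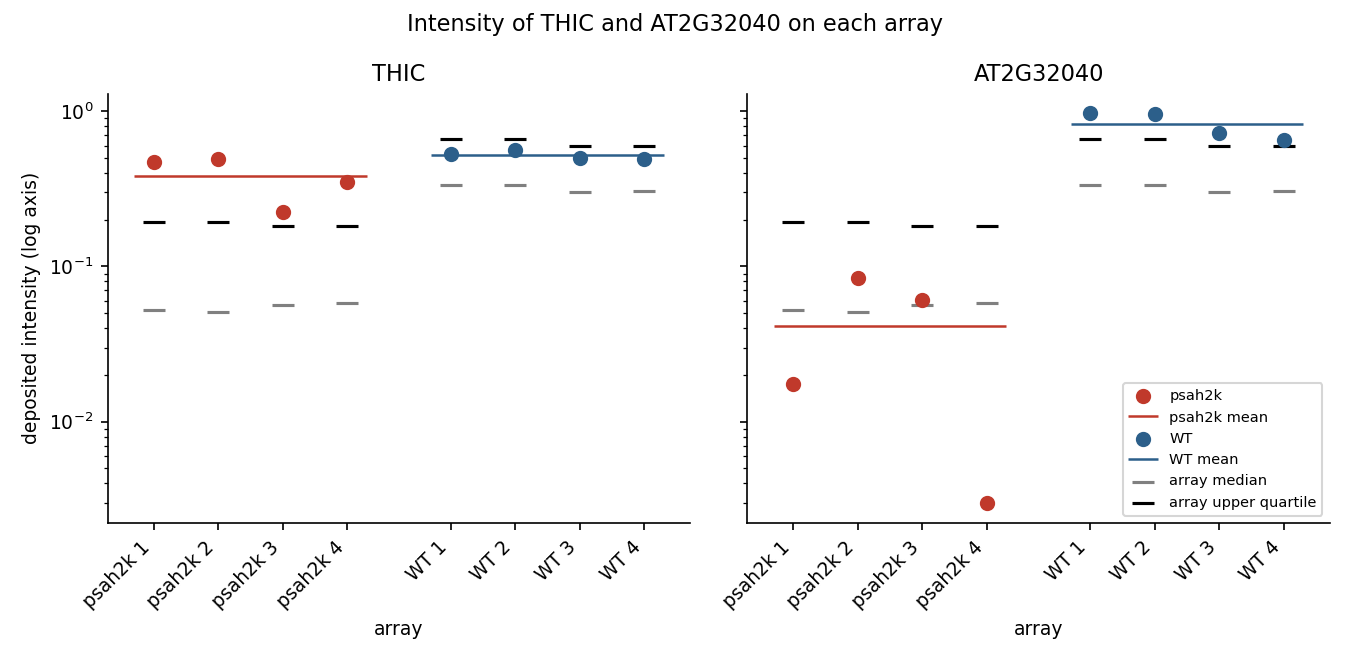
Deposited intensity (log axis) of THIC (left) and AT2G32040 (right) on each array, with genotype means as coloured lines and each array's median and upper quartile as short grey and black bars. THIC lies above the upper quartile bar on all psah2k arrays and below it on all WT arrays, whereas AT2G32040 lies below that bar on all psah2k arrays and above it on all WT arrays. How many other features change sides in these ways was not counted.

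The percentile ranks of AT2G32040 were 36.0, 59.4, 51.8 and 22.8 on psah2k arrays 1 to 4, against 85.5, 84.7, 80.6 and 77.8 on WT arrays 1 to 4. All psah2k ranks were below all WT ranks, as for 21.6% of the tested features. The mean rank was lower in psah2k, by a difference of −39.7 points, and 76 of the 2353 tested features had a more negative one. Among the 468 tested features with a single gene, 24 did. Ranked among the features above 0 alone, AT2G32040 was at 23.2 ± 20.0 in psah2k and 79.4 ± 4.14 in WT, so that the difference grew to −56.3 points.

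**Figure D3:**
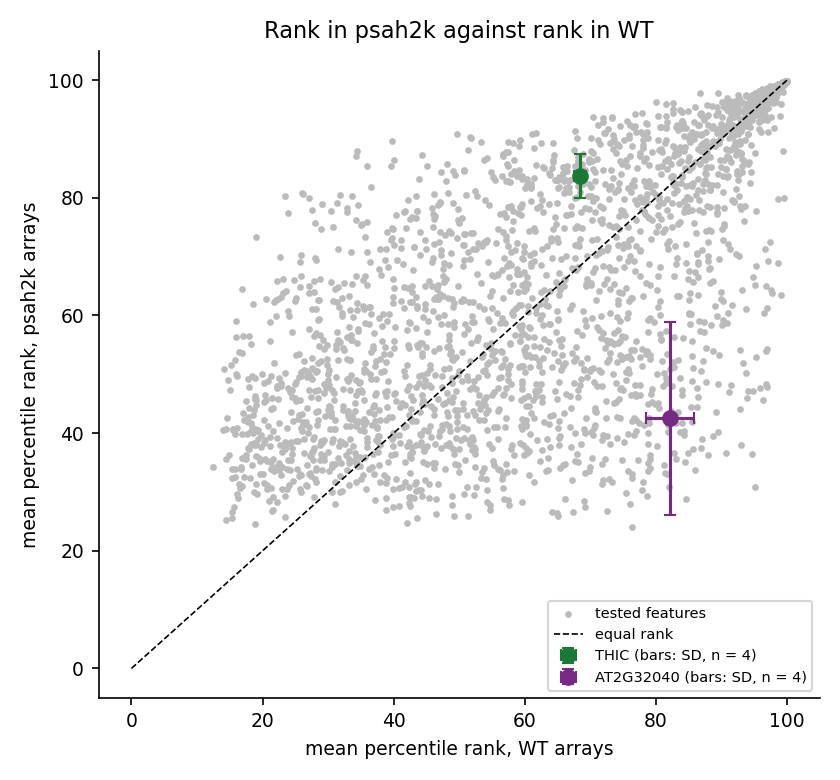
Mean percentile rank on the psah2k arrays (vertical) against the WT arrays (horizontal) for the 2353 tested features in grey, with THIC and AT2G32040 in colour (bars: SD, n = 4) and a dashed line of equal rank. THIC lies above the line, at 83.7 against 68.4, within the dense part of the cloud, and AT2G32040 lies far below it, at 42.5 against 82.2.

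After quantile normalization the log2 values of THIC were −0.73, −0.79, −1.31 and −0.81 on psah2k arrays 1 to 4, against −1.85, −1.70, −1.77 and −1.79 on WT arrays 1 to 4. The difference, psah2k minus WT, was 0.87 (SE 0.158), a 1.83-fold higher value in psah2k, where the median over all tested features was −0.12. Its direction depended on the scaling. It was −0.50 for the values as deposited, where the median of all features was −1.77. It was 1.44 after median centring, with a median of 0.18, and 0.73 after upper quartile centring, with a median of −0.53. THIC thus stood 0.99 to 1.27 log2 units above the median feature under these 4 scalings, and 513 to 538 tested features stood higher.

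For AT2G32040 the normalized log2 values were −4.46, −2.67, −2.86 and −6.83 on psah2k arrays 1 to 4, against −0.52, −0.59, −0.97 and −1.17 on WT arrays 1 to 4. The difference was −3.39 (SE 0.866), or 10.5-fold lower in psah2k, and 51 of the tested features had a more negative one. Without psah2k 4 it was −2.45, or 5.46-fold lower, so that this array set much of its size. It was −5.17 for the deposited values, −3.23 with median centring and −3.94 with upper quartile centring. Relative to the median feature it was between −3.28 and −3.41 under the 4 scalings. A pseudocount of 0.0156, which damps differences between dim values, brought it to −2.26.

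**Figure D4:**
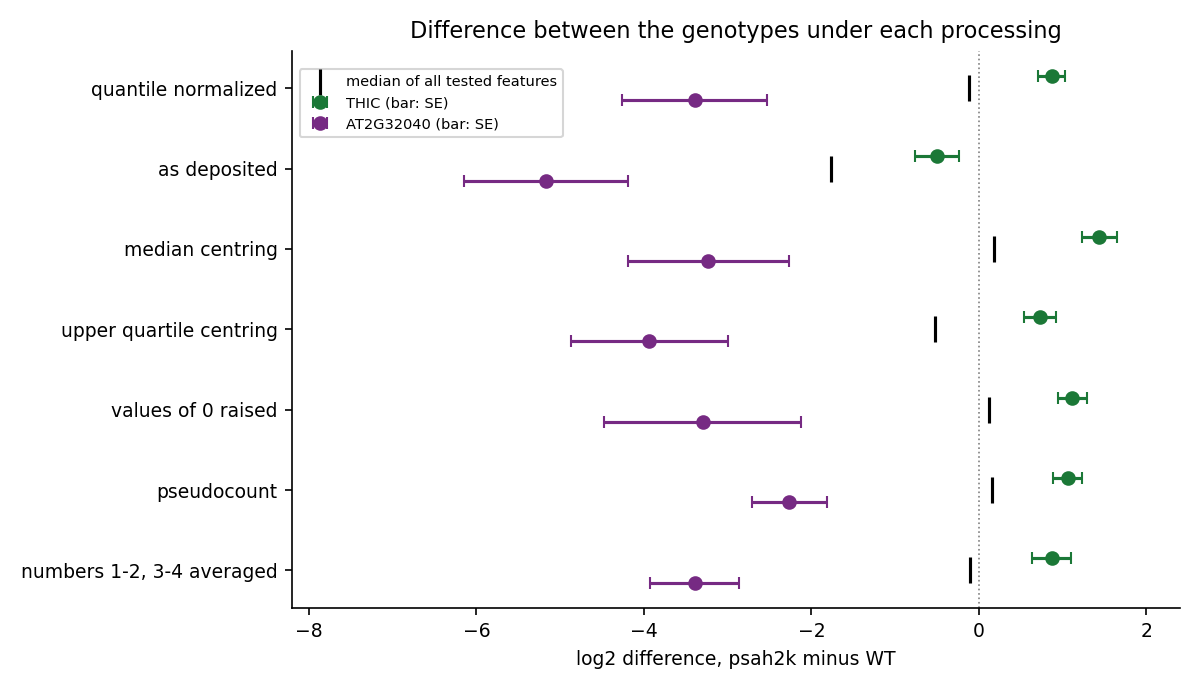
Log2 difference, psah2k minus WT, of THIC (green) and AT2G32040 (purple) under 7 ways of processing, with SE bars from the limma fit and the median over all tested features as a black tick. THIC lies right of the median tick throughout and left of 0 only for the values as deposited, and AT2G32040 lies left of the median tick and of 0 throughout.

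The ratio of the THIC to the AT2G32040 signal within an array does not depend on a scale factor of that array. Its absolute size says nothing of transcript amounts, because the features need not hybridise alike. The genotypes differed by more than a scale factor, however. The upper quartile of an array averaged 0.188 ± 0.00634 in psah2k and 0.627 ± 0.0360 in WT (SD, n = 4 each). A level near the top of the array was instead higher in psah2k, at 14.1 ± 2.05 against 9.92 ± 1.03 in WT. What part this uneven shift has in the ratios was not tested. On the log2 scale the ratio was 4.75, 2.55, 1.88 and 6.87 on psah2k arrays 1 to 4, against −0.88, −0.78, −0.53 and −0.42 on WT arrays 1 to 4. It was above 0 on every psah2k array and below 0 on every WT array. Both genes were chosen with these values known and pairs of other features were not compared, so this is a description only. The highest psah2k ratios were those of arrays 4 and 1, on which AT2G32040 was dimmest.

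Samples of a genotype varied more for AT2G32040 than for THIC. The coefficient of variation of the deposited intensity was 91.3% in psah2k and 19.8% in WT for AT2G32040, and 32.5% in psah2k and 6.22% in WT for THIC. The median over tested features was 43.2% in psah2k and 10.9% in WT. THIC was thus steadier than the typical feature in either genotype and AT2G32040 more variable.

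Some of the variation ran along the array numbers, but most of that of AT2G32040 in psah2k did not. There numbers 1 and 2 together were 1.60 times as bright as 3 and 4, but each pair held a brighter and a much dimmer array, at 0.0174 and 0.0847 for 1 and 2 and at 0.0608 and 0.00298 for 3 and 4. In WT, AT2G32040 was 1.41 times as bright on numbers 1 and 2 as on 3 and 4, when the median feature was 1.08 times as bright, and 91.4% of tested features had a smaller ratio. For THIC this ratio was 1.69 in psah2k, where the median feature was also at 1.08, and in WT it was near the median, with a smaller ratio in 54.5% of tested features. With numbers 1 and 2 alone, the normalized log2 difference between psah2k and WT was 1.02 for THIC and −3.01 for AT2G32040. With numbers 3 and 4 alone it was 0.72 for THIC and −3.78 for AT2G32040. Directions were the same in both subsets. They could not differ, since for each gene all normalized psah2k values lay on the same side of all WT values. The split was chosen after the data had been seen.

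The other genes of these pathways were thinly covered. Lists of thiamine synthesis, transport and use, folate synthesis, transport and use, other vitamins, NAD and the plastid iron-sulfur machinery held 143 genes besides THIC and AT2G32040. Only 3 of them had a feature of their own: AT1G31220, AT1G78620 and GLDH. All 3 were tested and limma called 2, against 53.0% of all tested features. Of the tested features 26.3% were called higher and 26.6% lower in psah2k, and of the 3 genes 1 was called in each direction. Their median log2 difference was that of GLDH, −0.48, against −0.12 over all tested features. AT1G31220 was at −1.70 and AT1G78620 at 1.12, so this median does not describe the lists as a group. None of the other genes for making thiamine and none of the 18 for making folate had a feature of its own.

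AT1G31220 encodes the glycinamide ribonucleotide formyltransferase of purine synthesis, which takes a one-carbon unit from a folate and lies upstream of the intermediate used by THIC. Its intensities were 0.0230, 0.0557, 0.0103 and 0 on psah2k arrays 1 to 4, against 0.454, 0.454, 0.305 and 0.317 on WT arrays 1 to 4. All psah2k values were below all WT values, as for 72.6% of the tested features. It fell by 1.70 on the log2 scale (SE 0.422, limma adjusted p = 0.0141), with the value of 0 left out as missing. The call was lost with values of 0 raised to the lowest value above 0 on their array (adjusted p = 0.175), with the pseudocount (0.0815), on percentile ranks (0.0544) and with numbers 1-2 and 3-4 averaged first (0.0684).

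AT1G78620 encodes the phytyl phosphate kinase of tocopherol synthesis, listed as VTE6. Its intensities were 0.954, 1.14, 0.962 and 0.823 on psah2k arrays 1 to 4, against 0.753, 0.743, 0.780 and 0.784 on WT arrays 1 to 4. All psah2k values were above all WT values, as for 7.18% of the tested features. It rose by 1.12 on the log2 scale (SE 0.137, limma adjusted p = 0.000401), and by 0.33 without passing (adjusted p = 0.0594) for the values as deposited. GLDH is the mitochondrial enzyme of the last step of ascorbate synthesis. It averaged 0.0244 ± 0.0219 in psah2k, with array 2 at 0, and 0.219 ± 0.0171 in WT (SD, n = 4 each). Its normalized log2 difference, with the value of 0 left out as missing, was −0.48 and did not pass (SE 0.418, limma adjusted p = 0.363). As deposited the difference was −2.97 and passed (adjusted p = 0.00112), as it did after upper quartile centring (−1.66, adjusted p = 0.0357).

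Features that the annotation assigns to several genes, all of the same list, were looked at after the data had been seen. They name no single gene. Of 3 such features of the folate-biopterin transporter family, feature 1453 averaged 0.0387 ± 0.0361 in psah2k, with array 2 at 0, and 0.440 ± 0.0723 in WT (log2 difference −1.19, limma adjusted p = 0.0453). Its call was lost after median centring (adjusted p = 0.0516), with values of 0 raised (0.227), with the pseudocount (0.0965), with the replicate number as a block (0.0939), on percentile ranks (0.0877) and without any 1 of 6 arrays, those being psah2k 1, psah2k 4 and the 4 WT arrays (adjusted p up to 0.103). Feature 1471 was at 0.157 ± 0.0309 in psah2k and 0.268 ± 0.0265 in WT. It was called higher after quantile normalization (log2 1.16, adjusted p = 0.000803) and lower as deposited (log2 −0.79, adjusted p = 0.00384). Feature 2657 was at 0 on all 4 psah2k arrays and at 0.310 ± 0.0154 in WT, and was not tested. How many other features were at 0 on all psah2k arrays and above 0 on all WT arrays was not counted. All 3 family features were dimmer in psah2k as deposited, as most features were, while after quantile normalization the 2 that were tested differed in direction.

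Outside the family, feature 859, shared by 3 genes of folate-dependent one-carbon reactions, averaged 0.226 ± 0.0403 in psah2k and 0.402 ± 0.0192 in WT. It was called higher after quantile normalization (log2 0.81, limma adjusted p = 0.00201) and lower as deposited (log2 −0.85, adjusted p = 0.00230), and not called after upper quartile centring (adjusted p = 0.0769) or with numbers 1-2 and 3-4 averaged first (0.0559). Feature 2324, shared by both genes for the thiamine diphosphate-dependent subunit of mitochondrial 2-oxoglutarate dehydrogenase, averaged 0.0709 ± 0.0134 in psah2k and 0.244 ± 0.0303 in WT. Its log2 difference of 0.40 did not pass (adjusted p = 0.166), while as deposited it was −1.79 and passed as lower (adjusted p = 0.000115). It passed as higher with values of 0 raised (log2 0.96, adjusted p = 0.0155), with the pseudocount (log2 0.76, adjusted p = 0.0105) and on percentile ranks (15.5 points, adjusted p = 0.00809).

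The genes most like THIC and AT2G32040 were taken among features with a single gene, by the mean absolute difference in percentile rank over the 8 arrays. The closest to THIC were AT3G54210 (2.14 points), AT3G58610 (2.56), AT5G56070 (3.19), AT3G44050 (3.77) and AT1G15410 (4.24), against a median of 30.9 points over these features. AT3G54210 encodes a plastid ribosomal protein and AT3G58610 the ketol-acid reductoisomerase of branched-chain amino acid synthesis in plastids. Roles of AT5G56070, AT3G44050 and AT1G15410 are not given here, so no role shared by the 5 can be read from this. AT3G54210 was at a rank of 85.5 in psah2k and 68.3 in WT, and AT3G58610 at 86.3 in psah2k and 70.2 in WT. AT3G54210, AT3G58610 and AT5G56070 stayed among the 5 closest to THIC under both other rankings and whichever array was left out.

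The closest to AT2G32040 were AT2G30320 (6.07 points), AT2G31920 (7.44), AT3G17550 (7.51), AT4G13680 (8.37) and AT5G42070 (8.46), against a median of 30.7 points. AT2G30320 was at a rank of 44.9 in psah2k and 78.8 in WT. AT2G31920 was at 51.3 in psah2k and 82.8 in WT, and AT3G17550 at 44.1 in psah2k and 92.8 in WT. AT2G30320 alone stayed among the 5 closest under both other rankings and whichever array was left out, and 2 of the 5 were kept without psah2k 1, without psah2k 2 or with ranks among features above 0. AT2G30320 and AT4G13680 each had 1 psah2k array at 0. THIC and AT2G32040 differed from each other by 27.5 points on this measure.

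**Figure D5:**
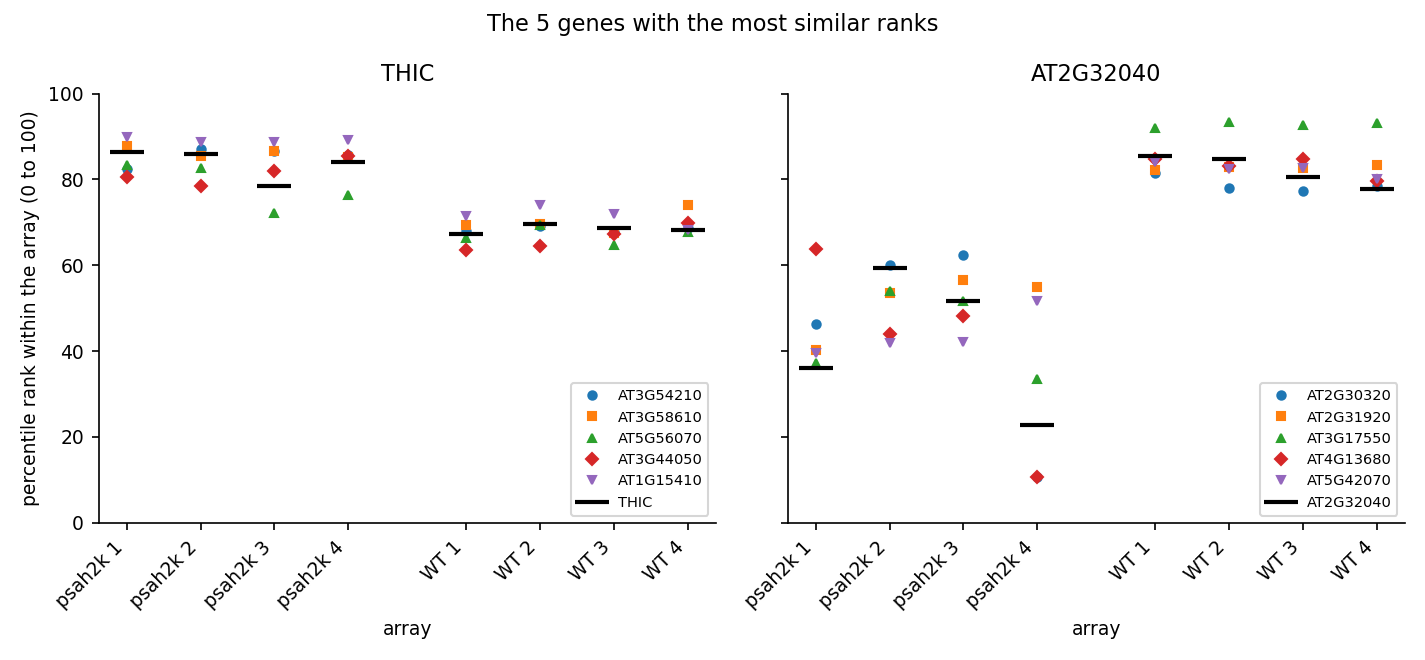
Percentile rank on each array of the 5 single-gene features most like THIC (left) and AT2G32040 (right) as coloured symbols, with the gene itself as a black bar. The symbols lie closely around the bar for THIC, at mean distances of 2.14 to 4.24 points, and more widely for AT2G32040, at 6.07 to 8.46 points, mainly on the psah2k arrays.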

How the data were processed

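RNA of 4 psah2k and 4 WT samples was measured on 1-channel arrays, grouped and numbered by the sample titles. The deposited intensity values are linear, from 0 to 100; the sources used here do not say how the authors corrected background or scaled them. Precision is limited by the number of arrays. Gene names come from GEO's annotation of the platform, and 690 of 692 single genes matched the TAIR10.1 RefSeq table, among them both genes described here.

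Intensities were log2 transformed with 0 as missing. Array medians over values above 0 spanned 2.14 log2 units, so arrays were quantile normalized. Psah2k minus WT was fitted with limma 3.58.1 in R 4.3.3 (lmFit, eBayes; two-sided, Benjamini-Hochberg over 2353 features, threshold 0.05). The fit was tested on simulated data with 200 changed features. These values were drawn on the normalized scale, so scaling and the handling of values of 0 were not tested. Arrays were drawn independently, and fewer features were changed than were called in the data. The likeness of some arrays within a genotype and so wide a change were thus not tested either. Percentile ranks used all 3439 features. Alternatives covered scaling, values of 0, filters, the variance model, replicate numbers and each array left out. Named were THIC, AT2G32040, the list genes with a feature of their own, and the 5 features closest in rank to each. The genes and lists were chosen with earlier results of these data known. Figures were drawn with matplotlib 3.10.9.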

Additional observations from a re-analysis of the deposited data

Results flagged for a closer look

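Intensity and percentile rank were checked for an array far from the other 3 of its genotype in 15 named genes, or 60 groups of 4 arrays, where chance flags about 1 in 20. THIC and AT2G32040 had no such array. The only one was WT 2 for AT3G17550, a gene close in rank to AT2G32040, with an intensity of 1.73 against 1.52 to 1.55 on the other WT arrays.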

How the results depend on the processing

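The difference of AT2G32040 was below 0 and its rank lower in psah2k under every alternative run. That of THIC was above 0 except for the values as deposited. For each gene all normalized psah2k values lay on the same side of all WT values. Averaging, blocking or leaving out an array could thus hardly change these signs. The values as deposited gave −0.50 for THIC, −5.17 for AT2G32040 and 1890 called features against 1246. THIC was at 1.44 after median centring and at 1.12 with values of 0 raised to the lowest positive one. Its rank difference was 18.0 points among features with a single gene, and that of AT2G32040 was −56.3 among features above 0. Averaging numbers 1-2 and 3-4 first, an alternative chosen after seeing the data, left 689 called features and 1 of the 3 list genes. With values of 0 raised, with the pseudocount or on percentile ranks, 1 of the list genes was called instead of 2. With features above 0 on all arrays alone, 1 of the list genes was tested, and it was called. Adding the features that several genes of 1 list share, also chosen after seeing the data, gave 5 calls of 7, 3 higher and 2 lower, against 53.0% of all tested features. Apart from the settings named, the cause of these changes was not tested. With each array left out, the difference was 0.77 to 0.97 for THIC and −3.74 to −2.45 for AT2G32040, the rank difference 14.4 to 17.1 and −45.3 to −33.1 points, and the calls 1028 to 1318 features and 2 to 2 list genes. With the replicate number as a block 1087 features were called. Both differences stayed at 0.87 and −3.39, since a block cannot change the difference of a feature without missing values here. Deviations from the genotype means correlated at 0.0561 to 0.126 between arrays of the same number, not above 0.1 for every number, so the numbers were not taken as pairs; yet all 4 psah2k arrays correlated best with the WT array of their own number. Intensities carry no count, so the lowest value that can be measured is unknown and the size of the AT2G32040 difference rests on dim psah2k values.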
